A study of Mus musculus with 11 samples.

Results

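The genes described here code for the proteins of the cytosolic ribosome. They were chosen as protein-coding mouse genes named by the pattern of ribosomal protein symbols (Rpl or Rps with a number, Rplp0 to Rplp2, and Rpsa) with a mean of at least 5 CPM (a gene's counts scaled by the library's total gene counts) over the 11 libraries. Of 47069 genes in the files, 80 protein-coding genes matched by name, and 66 of these reached the level, 40 of the large subunit and 26 of the small subunit. Since members were selected on their mean level, the levels are given as a description. Just inside the limit were Rps16 at 5.39 CPM, Rpl10 at 5.75 CPM and Rpl31 at 6.24 CPM, and just outside it were Rpl36a at 4.82 CPM, Rpl27 at 4.81 CPM and Rps6 at 4.15 CPM.

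Each cytosolic ribosome has a small subunit, which reads the mRNA, and a large subunit, which joins amino acids. The ribosomal proteins are made in step with the ribosomal RNA, and most of their mRNAs begin with a run of pyrimidines at the 5′ end, the TOP motif, through which the Mtor pathway and the RNA-binding protein Larp1 set how strongly they are translated. Most ribosomal protein genes have many processed copies elsewhere in the genome, so a short read from one of these mRNAs can align to several places. Dividing progenitor cells make many ribosomes, and in the mouse retina the last progenitors leave the cell cycle in the days after birth, while rods and bipolar cells mature.

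The study, which by its title concerned the role of correlated activity of the perinatal retina in the wiring of visual axons, sequenced RNA of C57BL/6 mouse retinas in 4 groups: wild type at postnatal day 4 (P4, 2 libraries), Kir2.1 at P4 (3 libraries), wild type at P8 (3 libraries) and Kir2.1 at P8 (3 libraries). Kir2.1 mice combine Brn3b-Cre, a driver for ganglion cells, with a transgene that codes for a potassium channel, human Kir2.1, joined to eYFP. The transgene has a CAG promoter behind a floxed stop cassette and was made by injecting oocytes. The labels disagree on the later age (P8 in the age field, P11 in the protocol), on the controls (wild type in the genotype field, Brn3b-Cre mice in the protocol) and on the material (ganglion cells in the source field, retina in the tissue field), and the protocol dissociates retinas with no sorting step. The field values for age and genotype are used here. Nothing states that replicates are separate animals, so p-values measure the spread between these libraries, which may be technical.

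Gene counts per library ranged from 9362215 to 12478838. Several libraries stood apart. The 2 wild-type P4 libraries differed in the summed CPM of 15 genes of dividing cells, 2742 in replicate 1 and 1013 in replicate 2. The 3 wild-type P8 libraries differed in the summed CPM of 12 rod genes, 868, 3551 and 8009 in replicates 1 to 3, against 7271 to 7558 in Kir2.1 P8. Kir2.1 P8 replicate 2 had the fewest gene counts and the most genes with a count (31325, against 22609 to 24591 in the other libraries), and its 10 genes of the pigment epithelium summed to 38.0 CPM. The 15 ganglion cell genes summed to 494 to 2111 CPM over the 11 libraries, below the 14 amacrine and horizontal cell genes (2213 to 5584 CPM), so genes of other retinal cells were counted beside those of the ganglion cells in the source field. In such bulk samples, fewer cells of a type and less RNA per cell cannot be told apart.

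Together the 66 genes took a larger share of gene counts at P4 than at P8. In wild-type P4 the summed share was 0.343% in replicate 1 and 0.287% in replicate 2. In Kir2.1 P4 it was 0.306%, 0.325% and 0.312%. In wild-type P8 it was 0.245%, 0.237% and 0.286%, and in Kir2.1 P8 it was 0.281%, 0.259% and 0.263%. The Kir2.1 libraries of the 2 ages did not overlap, and neither did the wild-type libraries, although wild-type P4 replicate 2 and wild-type P8 replicate 3 were nearly level. The group means were 0.315% ± 0.0394 (SD, n = 2) in wild-type P4, 0.315% ± 0.00996 (SD, n = 3) in Kir2.1 P4, 0.256% ± 0.0263 (SD, n = 3) in wild-type P8 and 0.268% ± 0.0115 (SD, n = 3) in Kir2.1 P8. The 95% Wilson interval of a library's share was at most 0.00337 percentage points to either side, which covers counting error only. The large-subunit genes summed to 1.49 to 1.66 times the CPM of the small-subunit genes in every library.

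**Figure D1:**
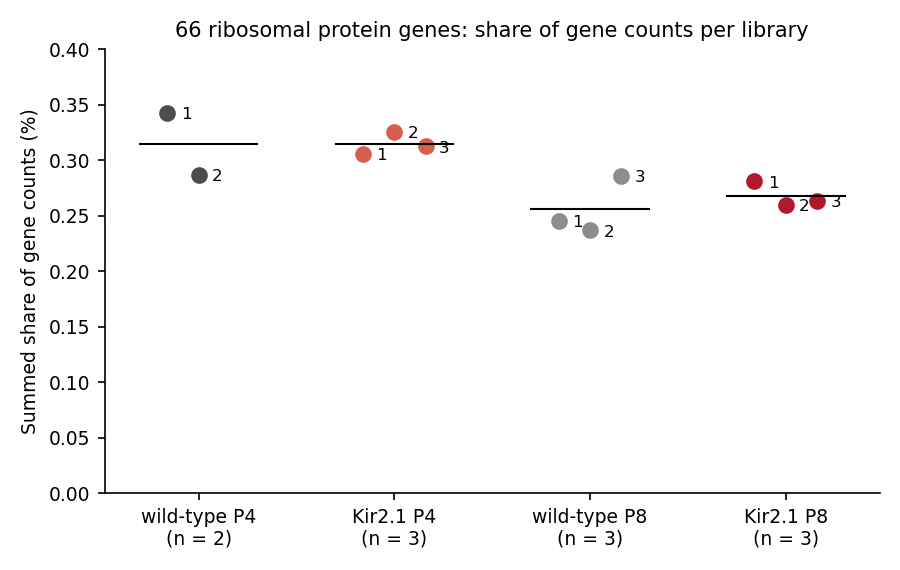
Summed share of gene counts (%, vertical axis from 0) taken by the 66 ribosomal protein genes in each library, with the replicate number beside each point and a line at the group mean. The P4 libraries lie between 0.287% and 0.343%, and the P8 libraries between 0.237% and 0.286%.

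Within the set the levels spanned a wide range. Mean CPM ran from 5.39 to 267 with a median of 26.2, and 5 genes (Rpl4, Rpl8, Rpl13a and Rps3 among them) held 33.0% of the members' CPM. On the scale of mean CPM per kb of principal transcript, levels ran from 4.86 to 241 with a median of 34.8. The highest per kb were Rpl8 (241), next to the catalytic centre of the large subunit, Rplp2 (194), of the stalk that binds elongation factors, Rpl22 (192), Rpl4 (173), which lines the exit tunnel of the new protein, Rpl13a (171) and Rpl32 (170.0). The lowest per kb were Rps16 (4.86), the X-linked Rps4x (6.51), Rpl12 (7.06) and Rpl10 (7.19), which completes the large subunit in the cytoplasm. The stalk proteins differed among themselves, with Rplp2 at 194, Rplp1 at 139 and Rplp0, the base of the stalk, at 80.6 CPM per kb. With the length of all annotated exons in place of the principal transcript, 4 of the 6 highest genes stayed among the top 6, while Rplp2 stood at 39.4 and Rpl22 at 31.2, and Rplp2 came last of the stalk proteins (Rplp1 139, Rplp0 66.01). Rpl5 and Rpl11, which bind the smallest RNA of the large subunit together and can hold Mdm2, stood at 13.2 and 9.22 CPM per kb. Rps19, the gene most often mutated in Diamond-Blackfan anaemia, stood at 86.5 CPM per kb, and Rpsa, also known as a laminin receptor, at 9.83 CPM per kb.

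The 14 genes below the limit included ribosomal proteins that every ribosome contains, such as Rps6, the substrate of S6 kinase, at 4.15 CPM, and Rpl24 at 0.949 CPM. Rpl39l, known from testis, had no count in any library, which allows at most 0.320 CPM in the shallowest of them. Rpl10l, also a testis gene, had a mean of 0.0338 CPM. Rpl3l, a gene of heart and skeletal muscle, had 1.67 CPM against 15.8 CPM for Rpl3. Of the ribosomal proteins that the name pattern missed, Rack1, a signalling scaffold on the small subunit, had 194 CPM, Rps3a1 27.9 CPM, and Fau, a fusion of a ubiquitin-like protein to a small-subunit protein, 3.05 CPM. The paralogs Rpl7l1 (43.1 CPM), Rpl22l1 (12.01 CPM) and Rpl36al (11.7 CPM) were also counted.

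The members lie on 18 chromosomes, with 14 of the 66 (21.2%) on chromosome 7, which holds 7.48% of all genes tested. Their principal transcripts run from 271 to 3706 bases, with a median of 740.0 bases.

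The counted levels went along with how much of each transcript's sequence is found nowhere else. Each principal transcript was cut into all its 50-base words, and these were looked up in the transcripts of all other genes of GENCODE release M21. At least 1 such word lay in another gene for 65 of the 66 members, and 40 of 66 had under 50% of their words to themselves. The share of words found in no other gene ran from 4.91% in Rpl35 to 100%, with a median of 45.0%, and its median over the 14 genes below the limit was 21.0%. Over the 80 genes, the median level was 13.2 CPM per kb for the 27 genes with under 25% such words, 25.3 for the 28 genes with 25% to 60% and 38.6 for the 25 genes with 60% or more. Spearman's rho was 0.31 over the 80 genes and 0.46 without Rpl3l, Rpl10l and Rpl39l. These are correlations across genes of the same libraries, which are not independent replicates. Records that aligned to more than 1 place were kept apart from genes in the deposited counts and made up 33.3% to 41.7% of all records. Their part in the levels was not tested.

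Rpl10 shows what such sharing looks like, and its first 60 coding bases are set beside those of a copy that GENCODE M21 annotates as protein-coding. Rpl10 lies at chrX:74270812-74273135 (plus strand) and Rpl10-ps3 at chr9:50344201-50344968 (minus strand), both on GRCm38. The sequences are from the GENCODE transcripts, and capitals would mark bases that differ.
Rpl10: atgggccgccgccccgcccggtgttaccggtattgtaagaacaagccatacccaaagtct
Rpl10-ps3: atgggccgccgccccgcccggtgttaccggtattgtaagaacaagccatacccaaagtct
No base differed here or in the rest of the 642 coding bases compared. The counts gave 5.75 CPM to Rpl10 and 5.07 CPM to Rpl10-ps3, so the level of either is uncertain. Another pair shows a paralog with more bases of its own. Rps27 (chr3:90212522-90213651, minus strand) and Rps27l (chr9:66946086-66949516, plus strand) code for nearly the same protein, and 192 of 252 coding bases (76.2%) were alike. Their first 60 coding bases follow, with the 18 that differ in capitals.
Rps27: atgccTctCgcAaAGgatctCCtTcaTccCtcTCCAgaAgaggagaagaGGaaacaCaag
Rps27l: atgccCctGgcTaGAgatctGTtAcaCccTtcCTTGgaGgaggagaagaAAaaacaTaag
Rps27 had 2.55 CPM with 1.35% of its words in no other gene, and Rps27l had 10.9 CPM with 77.6%. The part of shared words in that difference was not tested.

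**Figure D2:**
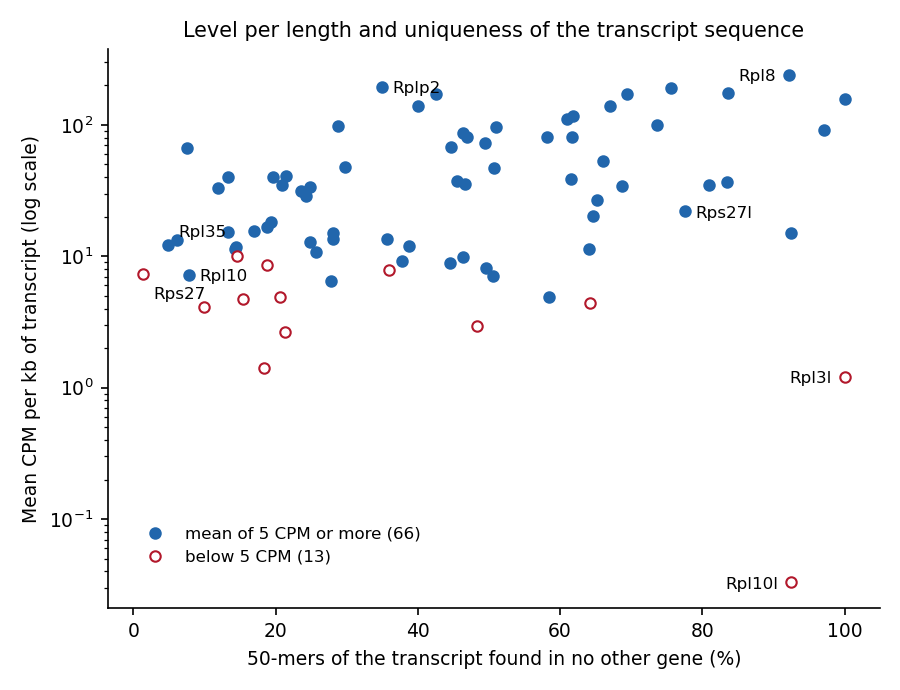
Mean CPM per kb of principal transcript (log scale) against the share of the transcript's 50-base words found in no other gene (%), for 79 of the 80 genes (Rpl39l, at 0, cannot be drawn on a log scale). Filled points are the 66 genes with a mean of 5 CPM or more and open points the 13 drawn genes below it, of which 11 lie left of Rps27l (77.6%).

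Between P4 and P8 in wild type, 3 of the 66 genes fell and none rose. With edgeR's quasi-likelihood test and Benjamini-Hochberg adjustment over 18188 genes at a threshold of 0.05, that is 4.55% of the members, close to the 4.39% of all genes tested that were called (3.58% of all genes were called lower and 0.803% higher). Most members leaned the same way without passing the test. A fold change below 0 was found in 48 of 66 (72.7%), against 47.4% of all genes, and the median log2 fold change was -0.18, against 0.03 over all genes. Without overlap between the libraries of the 2 ages, 19 members were lower (28.8%, against 18.5% of all genes) and 1, Rps27a, was higher (1.52%, against 12.3%).

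Coordinates here are those of GENCODE M21 on GRCm38, looked up by Ensembl ID. Rps26, a small-subunit protein that contacts mRNA near the channel through which it leaves (ENSMUSG00000025362, chr10:128624534-128626747), had 84.2 and 63.6 CPM at P4 and 44.3, 42.4 and 51.3 CPM at P8, and fell by 0.66 on the log2 scale (SE 0.16, edgeR adjusted p = 0.0407). Rpl26, a large-subunit protein near the end of the exit tunnel (ENSMUSG00000060938, chr11:68901583-68906989), had 71.8 and 58.3 CPM at P4 and 43.4, 27.1 and 41.6 CPM at P8, and fell by 0.77 (SE 0.20, edgeR adjusted p = 0.0492). Neither gene's values overlapped between the ages, and wild-type P8 replicate 2 was the lowest of the 11 libraries in both.

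The count of calls changed with the libraries used. Without wild-type P4 replicate 1, which was the higher of the pair in both genes, none of the 66 was called (0.823% of all genes were) and the members' median moved to -0.02. That fit keeps 1 wild-type P4 library, and in it Rps26 was at -0.45 and Rpl26 at -0.62. Without replicate 2, 5 were called (7.58%, against 6.76% of all genes) and the median was -0.36. Without wild-type P8 replicate 2, 1 was called (1.52%, against 2.97%), without replicate 1 of that group 3 (4.55%, against 7.19%) and without replicate 3 of that group 4 (6.06%, against 4.53%). A fit of the wild-type libraries alone called none (0.666% of all genes), while DESeq2 and limma voom each called 8 (12.1%, against 8.49% and 5.3% of all genes). In dividing cell genes it is replicate 2 that stands apart, at 1013 CPM, against 2742 in replicate 1 and 2280 to 2742 in Kir2.1 P4. The part of that difference in the result was not tested.

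In the Kir2.1 groups, 2 of the 66 genes fell with age and none rose. That is 3.03% of the members, below the 16.7% of all 18188 genes that were called in this comparison (8.73% of all genes were called lower and 7.93% higher). A fold change below 0 was found in 56 of 66 (84.8%), against 49.6% of all genes, with a median of -0.24 against 0.00. Without overlap between the ages, 33 members were lower (50%, against 19.3% of all genes) and 1, Rpl10a, was higher (1.52%, against 18.3%).

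Rpl38, a large-subunit protein known for its role in translating Hox mRNAs (ENSMUSG00000057322, chr11:114668524-114672331), had 27.2, 31.6 and 25.9 CPM in Kir2.1 P4 and 17.8, 18.2 and 20.1 CPM in Kir2.1 P8. It fell by 0.58 on the log2 scale (SE 0.15, edgeR adjusted p = 0.0248). Rps24, a small-subunit protein mutated in some families with Diamond-Blackfan anaemia (ENSMUSG00000025290, chr14:24487125-24496959), had 66.7, 65.6 and 63.6 CPM at P4 and 51.0, 50.2 and 49.9 CPM at P8. It fell by 0.36 (SE 0.11, edgeR adjusted p = 0.0467). The replicates of Rps24 were close within each age, and the ages of both genes stood clear of each other. Wild-type Rps24 was 66.7 and 60.6 CPM at P4 and 49.2, 41.4 and 50.7 CPM at P8, a log2 fold change of -0.41 that did not pass (SE 0.12, edgeR adjusted p = 0.0924). Leaving out any single Kir2.1 library brought the count to 0 or 1, and the share of all genes called to between 9.76% and 12%. A fit of the Kir2.1 libraries alone, or limma voom with quality weights, called 12 (18.2%, against 25.8% and 23.6% of all genes), while DESeq2 called 5 (7.58%, against 20.7%).

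**Figure D3:**
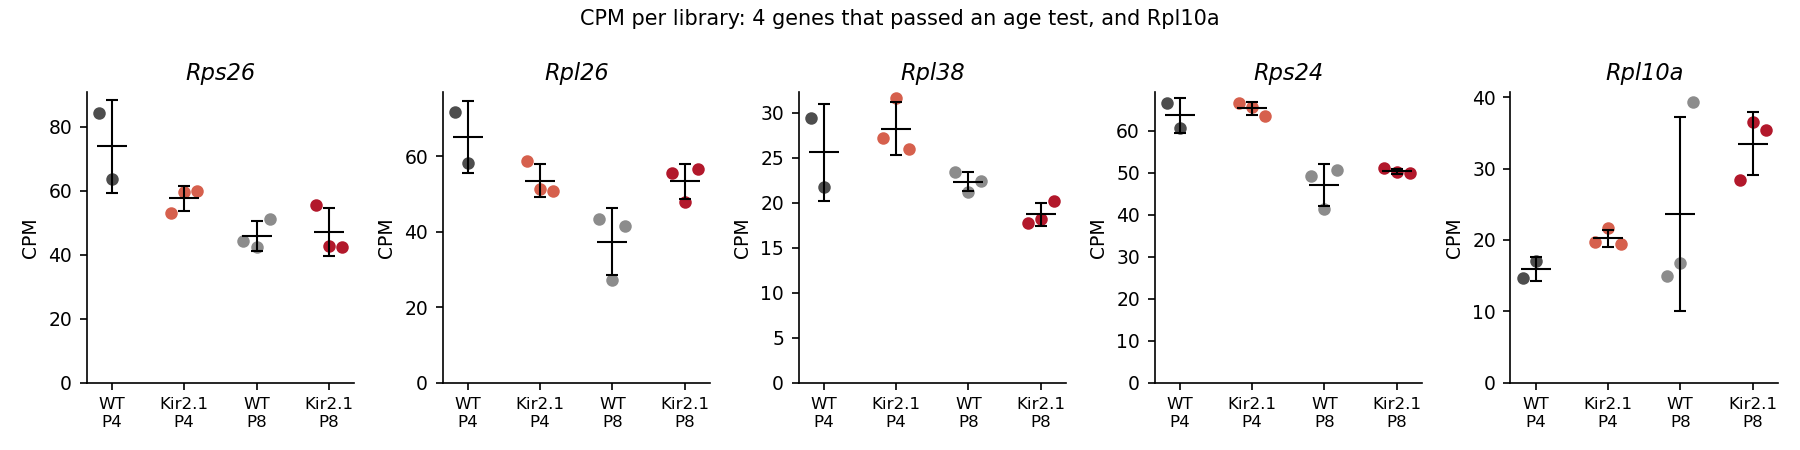
CPM per library (points, vertical axis from 0) of 4 genes that passed an age test and of Rpl10a in wild-type (WT) and Kir2.1 retinas at P4 and P8, with the group mean and SD (n = 2, 3, 3 and 3). Rps26 and Rpl26 are lower in wild-type P8 than in wild-type P4 in every library, and Rpl10a of wild-type P8 splits into 14.9 and 16.8 CPM against 39.3 CPM.

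The age comparisons of the 2 genotypes share no library. Below 0 in both were 43 of the 66 genes (65.2%), against 35.9% of all genes, and above 0 in both were 5 (7.58%), against 38.9%. The called genes were not the same in the 2 genotypes. Rpl26, at -0.77 in wild type, was at 0.01 in Kir2.1, where it had 58.7, 51.3 and 50.7 CPM at P4 and 55.5, 47.96 and 56.6 CPM at P8. Its difference between the 2 age effects was 0.78 (SE 0.27), with an unadjusted p of 0.0129 and an edgeR adjusted p of 1.0, so a difference between the genotypes was not shown. Rpl38 was at -0.58 in Kir2.1 and -0.17 in wild type, a difference of -0.41 (SE 0.23, edgeR adjusted p = 1.0) that did not pass either. In wild type the lean also went along with the transcript sequence. The median log2 fold change there was 0.04 for the 19 members with under 25% of words found in no other gene, -0.20 for 26 members with 25% to 60% and -0.28 for 21 members with 60% or more. In Kir2.1 the same medians were -0.18, -0.27 and -0.19.

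**Figure D4:**
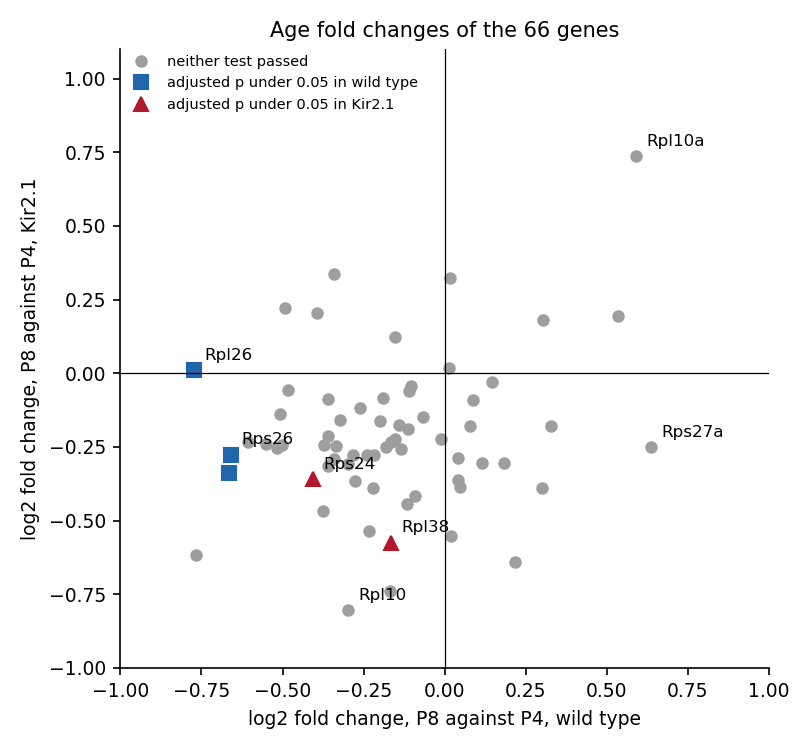
log2 fold change of P8 against P4 for each of the 66 genes in wild type (horizontal axis) and in Kir2.1 (vertical axis), with squares and triangles for genes that passed the edgeR test in one genotype. The lower left region holds 43 genes, and Rpl10a lies at the upper right with 0.59 and 0.74.

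Rpl10a, a protein at the side stalk of the large subunit where used tRNA leaves (ENSMUSG00000037805, chr17:28328471-28331033), was 1 of the 5 members above 0 in both genotypes. It had 14.7 and 17.1 CPM in wild-type P4, 19.7, 21.6 and 19.5 CPM in Kir2.1 P4, 14.9, 16.8 and 39.3 CPM in wild-type P8 and 28.4, 36.5 and 35.4 CPM in Kir2.1 P8. All 3 Kir2.1 P8 values and wild-type P8 replicate 3 were high, and the other 2 wild-type P8 libraries were at the P4 level. Its log2 fold change with age was 0.59 in wild type (SE 0.33, edgeR adjusted p = 0.364) and 0.74 in Kir2.1 (SE 0.29, edgeR adjusted p = 0.103), and neither passed. The 4 libraries with high Rpl10a are those with 7271 to 8009 CPM of rod genes, and the part of rods in the result was not tested. Of its 50-base words, 11.9% lie in no other gene, and its named copy Rpl10a-ps1 had 7.83 CPM.

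**Figure D5:**
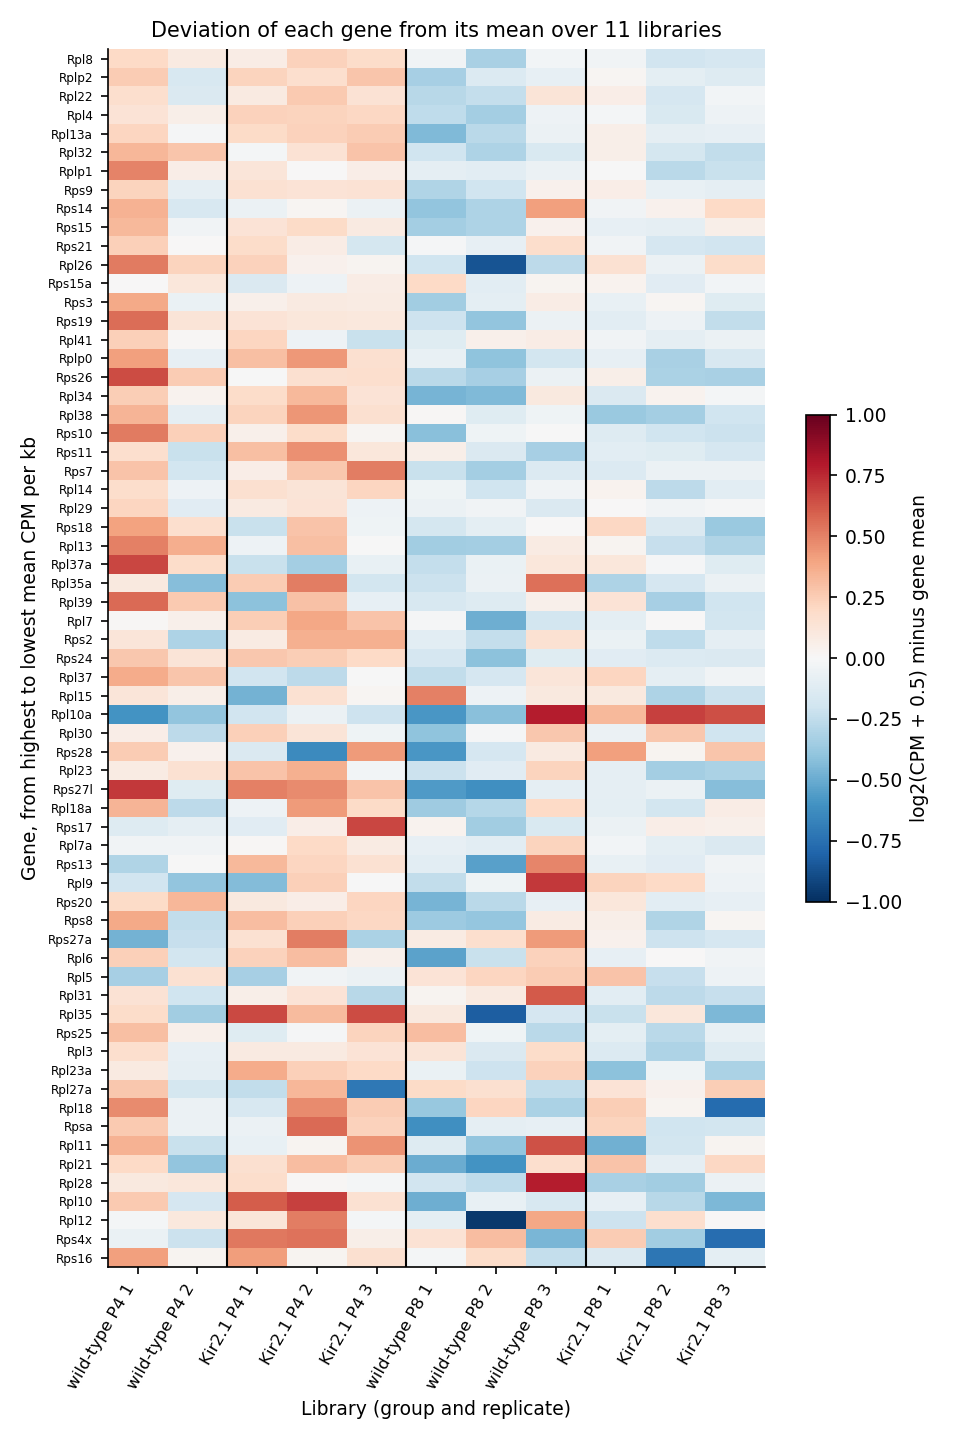
Deviation of log2(CPM + 0.5) from the gene's mean over 11 libraries (colour, cut at -1 and 1) for 65 of the 66 genes, ordered by mean CPM per kb, in each library. The counts that follow are over all 66 genes and use the mean of the 4 group means, which differs from the mean drawn. In replicate order, 56 and 28 genes are above it in wild-type P4, and 45, 57 and 45 in Kir2.1 P4. At P8 they are 13, 8 and 35 in wild type, and 26, 13 and 12 in Kir2.1.

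The start sites of 4 genes that changed with age are shown because the TOP motif, the feature these mRNAs are known for, lies there. The sequences are from RefSeq on GRCm38.p6, 30 bases each on the gene's strand, with a run of pyrimidines in capitals. Rpl10a stands beside them for its positive fold changes.
Rpl26 (chr11:68901581-68901610): gtgtagttCTCTTTCCTTTTgcggccatcg
Rpl38 (chr11:114668572-114668601): gcctcgttCTTTCCCCgttctcttcggttc
Rps24 (chr14:24490668-24490697): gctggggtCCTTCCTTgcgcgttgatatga
Rps26 (chr10:128626481-128626510): cgccggatCCTCTTTCgagtcttggctcca
Rpl10a (chr17:28328574-28328603): gcgctctgCCTTCTTTCCggtttccgcggc
A run was counted as a C followed by at least 5 more bases that are C or T, on the strand of the gene, within 50 bases either side of an annotated start. It was found in 53 of 59 windows of the 49 members in the table (89.8%) and in 58.1% of the 32851 windows of all genes. The longest unbroken run of C and T in a window had a median of 10 bases in the members and 7 in all genes. These 4 genes and Rpl10a alike hold such a run. Counted from an annotated start, it begins at 23 bases in Rpl26, 0 in Rpl38, -2 in Rps24, 4 in Rps26 and 17 in Rpl10a. Rps24 and Rpl10a each have another window with a run, at 12 and -9, not shown. A run away from the start need not be a TOP motif, and a match to these letters is a description of the sequence.

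None of these genes passed the test between Kir2.1 and wild-type retinas at P4. With edgeR's test 0 of the 66 members were called, as were 0.0% of all 18188 genes, and DESeq2 and limma voom called none of the members either. DESeq2 called 34 of all genes. At an unadjusted p under 0.05 there were 3 members (4.55%, against 7.22% of all genes), all lower in Kir2.1. They were Rpl37a (-0.66, SE 0.19), Rpl37 (-0.47, SE 0.17) and Rpl39 (-0.47, SE 0.21), small basic proteins of the large subunit. With a library left out, Rpl37a ran from -0.88 to -0.40, Rpl37 from -0.55 to -0.38 and Rpl39 from -0.63 to -0.31. Rpl37a had 34.0 and 24.1 CPM in wild type and 18.1, 16.6 and 20.1 CPM in Kir2.1, without overlap, and Rpl37 had 36.7 and 34.4 CPM against 24.7, 23.6 and 28.2 CPM. Rpl39 had 32.9 and 26.6 CPM against 16.5, 27.1 and 20.8 CPM, which overlapped. The most positive values were Rpl35 at 0.65 (SE 0.31), Rps4x at 0.58 (SE 0.38) and Rps27a, a fusion with ubiquitin, at 0.53 (SE 0.27). With a library left out, Rpl35 ran from 0.40 to 0.94. Without overlap between the genotypes, 5 members were lower in Kir2.1 (7.58%, against 14.9% of all genes). Those higher without overlap were 8 (12.1%, against 11.3%), with Rpl35 and Rps4x among them. The median of the 66 was 0.08, against 0.01 over all genes, with 27 of 66 below 0 (40.9%, against 48.7%). With a library left out, the median ran from -0.05 to 0.19. The median SE of the members was 0.19 on the log2 scale. The 15 genes of ganglion cells, the cells that express the transgene, summed to 2111 and 1470 CPM in wild type at this age. In Kir2.1 they summed to 1049, 494 and 1140 CPM. edgeR called 0 of these 15 genes at P4, as it called 0.0% of all genes, so a difference was not shown. The members' summed shares of the 2 genotypes overlapped.

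At P8 the 2 genotypes again gave 0 of 66 calls, and 0.0% of all 18188 genes passed edgeR's test. DESeq2 and limma voom called no member, and DESeq2 called 3 of all genes. At an unadjusted p under 0.05 there was 1 member (1.52%, against 6.82% of all genes), Rpl26, at 0.51 (SE 0.18), with 43.4, 27.1 and 41.6 CPM in wild type and 55.5, 47.96 and 56.6 CPM in Kir2.1. The groups did not overlap, and with a library left out Rpl26 ran from 0.33 to 0.66. Without overlap, 2 members were higher in Kir2.1 (3.03%, against 4.68% of all genes), Rpl26 among them, and 3 lower (4.55%, against 5.77%). Rpl10a was at 0.51 (SE 0.28) and Rps28 at 0.48 (SE 0.31). The most negative were Rpl31 at -0.50 (SE 0.26), Rpl28 at -0.46 (SE 0.30) and Rps27a at -0.35 (SE 0.24). Without wild-type P8 replicate 3, Rpl28 was at -0.04 and Rpl31 at -0.30. The median was 0.04, against 0.00 over all genes, and 28 of 66 were below 0 (42.4%, against 49.4%). With a library left out, this median ran from -0.03 to 0.10. Without wild-type P8 replicate 3, the library with high Rpl10a and high rod genes, Rpl10a was called as the only member, at 1.05 (edgeR adjusted p = 0.0321). That is 1.52% of the members, against 1.21% of all genes called without that library.

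The change of the Kir2.1 effect between P4 and P8 was called for 0 of 66 members and for 0.0% of all genes by edgeR, and for no member by DESeq2 or limma voom. At an unadjusted p under 0.05 there were 4 members (6.06%, against 3.09% of all genes). These were Rpl26 (0.78, SE 0.27), Rpl37a (0.71, SE 0.26), Rpl37 (0.60, SE 0.23) and Rps27a (-0.89, SE 0.37). Other values at the ends of the range were Rps28 at 0.68 (SE 0.46), Rps4x at -0.86 (SE 0.50) and Rpl35a at -0.69 (SE 0.36).

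The authors' deposited table for P4 called 0 of the 66 members, and 2.27% of the 13830 genes with an adjusted p. In the authors' deposited table for P4, 8 of the 66 were below 0, with a median of 0.16, and of the 3 genes named above Rpl37a was at -0.19 (adjusted p = 0.881), Rpl37 at 0.09 (adjusted p = 0.921) and Rpl39 at 0.14 (adjusted p = 0.939), the last 2 opposite in sign to the edgeR fit. The authors' deposited table for P8 called 2 of 66, both higher in Kir2.1, and 7.27% of 13396 genes. In the authors' deposited table Rpl10a had a log2 fold change of 0.76 (SE 0.19, adjusted p = 0.00314) and Rpl34, a large-subunit protein, 0.67 (SE 0.21, adjusted p = 0.0244). Rpl34 had 24.6, 25.01 and 36.6 CPM in wild-type P8 and 30.8, 35.0 and 33.7 CPM in Kir2.1 P8, with the highest value in wild-type replicate 3. In the edgeR fit Rpl34 was at 0.21. The libraries that entered the authors' deposited tables are not given in the sources used here, and the levels in those tables do not match the deposited counts for many of these genes. The authors' mean normalized count for P4, divided by the mean count of the 5 P4 libraries and set relative to the median of this ratio over all genes, was above 1.5 for 38 of the 66 members (57.6%), against 4.48% of all genes. For P8 it was above 1.5 for 35 of 66 (53%), against 2.29% of all genes. Rpl37 had a mean of 980 in the authors' deposited table for P4 and 274 to 424 counts in the libraries, and Rpl28 had 382 against 69 to 78 counts. The fold changes of these genes in the authors' deposited tables and in the edgeR fit therefore do not rest on the same values.

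The wider machinery of translation was read from lists of genes. Of 20 genes with TOP mRNAs that code for no ribosomal protein, none was called with age in wild type, against 4.39% of all genes, and 17 were below 0, against 47.4% of all genes (median -0.14). In Kir2.1, 6 of the 20 fell (30%, against 8.73% of all genes) and 18 were below 0, against 49.6% of all genes (median -0.30). The 6 were Eef1a1 (-0.45) and Eef1b2 (-0.56), which deliver aminoacyl-tRNA and recharge that factor, Tpt1 (-0.63), Pabpc1 (-0.37), which binds the poly(A) tail, Eif3a (-0.39) and Naca (-0.47). Of 33 other translation factors, 1 fell in wild type (3.03%, against 3.58% of all genes) and 2 in Kir2.1 (6.06%, against 8.73%), with Eef2k, the kinase that inhibits elongation factor 2, lower in both (-1.17 and -0.88). Of 43 genes of ribosome assembly and RNA polymerase I, none was called in wild type and 4 fell in Kir2.1 (Dkc1, Nop56, Rrs1 and Heatr1), which at 9.3% is near the 8.73% of all genes, with medians of -0.04 and -0.13. Of 22 regulators, Mycl fell in both genotypes (-0.74 and -1.15), and in Kir2.1 Myc fell (-1.62) and Max, the partner of Myc, rose (0.64). In Kir2.1 that is 9.09% lower and 4.55% higher, near the shares of all genes (8.73% and 7.93%), and in wild type 4.55% lower, against 3.58%. Mtor was at -0.04 and 0.05 and Larp1 at -0.12 and -0.05, and neither passed. Of the 8 ribosomal proteins outside the name pattern, Rps3a1 fell in Kir2.1 (-0.54), 12.5% against 8.73% of all genes. In the comparisons of Kir2.1 with wild type, edgeR called none of the genes of these lists at either age, as it called 0.0% of all genes.

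The ribosomal proteins of the mitochondrion, which belong to a separate ribosome, had medians near 0. Of 77 tested, none was called in wild type and 6 rose in Kir2.1 (7.79%, against 7.93% of all genes), among them Mrpl49 (1.15) and Mrpl41 (0.88), with median log2 fold changes with age of 0.05 and 0.09. A test of the difference between the 2 sets was not made. All 15 genes of dividing cells fell with age in both genotypes (against 3.58% of all genes in wild type and 8.73% in Kir2.1), with median log2 fold changes of -3.62 in wild type and -3.34 in Kir2.1, and their sum was 119 to 134 CPM in wild-type P8 and 131 to 170 CPM in Kir2.1 P8, against 1013 to 2742 CPM over the 5 P4 libraries. All 12 rod genes rose in Kir2.1 (median 3.74), where 7.93% of all genes did, and none passed in wild type (median 2.24), where 0.803% of all genes rose. The part of these cell types in the members' values was not tested.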

How the data were processed

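RNA-seq counts of 11 mouse retina libraries were analysed. The authors deposited a table of whole-number counts per Ensembl gene for each library, and 6 lines that are not genes were left out. The authors also deposited a table for each age comparing Kir2.1 with wild type, which per the file headers holds a mean normalized count (a signal in the authors' scaling), log2 fold changes, their errors, a test score, and p-values before and after adjustment. The submitters' processing notes name cutadapt 1.18, STAR 2.5.0c, HTSeq 0.6.1, SAMtools 1.9, bedtools 2.26.0, DESeq2 and build mm10. The annotation release and strand setting are not given in the sources used here, so reads of overlapping genes on opposite strands may not be told apart (10 of 66 members have an exon under another gene's exon).

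Levels are CPM of gene counts. Symbols and coordinates came from GENCODE M21 (46574 of 47069 IDs found). edgeR 4.0.16 in R 4.3.3 fitted 4 group means to all 11 libraries (filterByExpr, TMM, quasi-likelihood F test, 18188 genes, Benjamini-Hochberg threshold 0.05), which share the estimate of the spread. All 66 members passed the filter. The fit was tested on simulated data. Named genes were members with adjusted p under 0.05, or, with none, the 3 highest and 3 lowest fold changes, the extremes of level, and genes of known interest. The members and lists were chosen with earlier results of these data known. Rpl34, Rps27a's direction without overlap, Rps3, Rpl24, Rpl10l and the paralogs outside the name pattern were named after their values were seen. Alternatives used DESeq2 1.42.0, limma 3.58.1, other scalings and filters, a replicate block, and each library left out. Single values of 1 member and 1 related gene are not reported here. Replicates of a group differed beyond sampling noise.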

Additional observations from a re-analysis of the deposited data

How the results depend on the processing

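None of the single-gene fold changes recomputed, and neither age median of the members, changed sign under any alternative run. The members' medians between genotypes, near 0 and without calls, did. At P4 the median ranged from -0.0485 (without wild-type P4 replicate 2) to 0.189, and at P8 from -0.0258 (without Kir2.1 P8 replicate 1) to 0.105, also below 0 without wild-type P8 replicate 2. For P8 against P4 in wild type, the count of 3 called members became 8 by DESeq2, 8 by limma voom with quality weights, 5 with a filter at a mean of 1 CPM and 0 with only the groups compared, and it ranged from 0 to 5 with a library left out. The median log2 fold change of the members ranged from -0.364 to -0.0221 in those fits. All genes called in this comparison were 8.49% by DESeq2, 5.3% by limma voom, 5.19% with the filter at 1 CPM and 0.666% with only the groups compared. For P8 against P4 in Kir2.1, the count of 2 became 5 by DESeq2 (20.7% of all genes), 12 by limma voom (23.6%) and 12 with only the groups compared (25.8%), and ranged from 0 to 1 with a library left out. For Kir2.1 against wild type at P8 it ranged from 0 to 1, and for the difference between the ages the median ranged from -0.18 to 0.11, above 0 without Kir2.1 P8 replicate 2, without replicate 2 of wild-type P4, without replicate 3 of wild-type P8 and by limma voom (0.02). Where 1 wild-type P4 library was left, it was assumed to vary like the other groups. The 5 single genes called kept the call in 53 of 77 alternatives and lost it in 24, and of 306 alternatives for 18 fold changes that were not called, 1 gave a call.

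With genes above 1% of a library removed, the summed shares were 0.369% in wild-type P4, 0.370% in Kir2.1 P4, 0.295% in wild-type P8 and 0.309% in Kir2.1 P8. With a limit of 20 CPM there were 40 members, and the shares were 0.284% in Kir2.1 P4 and 0.243% in Kir2.1 P8. The fit of only the groups compared was not run for the difference between ages, which uses all groups.

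The replicate numbers come from the titles, and nothing states whether libraries with the same number belong together. Correlations of deviations ranged from -0.066 to 0.128 over 15 same-numbered pairs (median 0.041), of which 3 were over 0.1. Over 30 other pairs they ranged from -0.139 to 0.123 (median -0.013), of which 3 were over 0.1. With the replicate block, 2 members were called in wild type with age (Rps26 was lost, edgeR adjusted p = 0.0561; 3.07% of all genes were called) and 3 in Kir2.1 (16.1% of all genes), with medians of -0.21 and -0.24. The block gave 0 calls in the genotype comparisons and in their difference, with medians of 0.05, 0.03 and -0.01.

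Members had 28 counts or more in every library, and depth limits the low ones most.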

Other observations

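Pseudogenes of ribosomal proteins that carry -ps in the symbol were counted at low levels. Pseudogenes without that ending are not in the values that follow. Of 273 such genes, 235 had a count, and their sum ran from 61.5 to 104 CPM per library, against 2368 to 3426 CPM for the 66 members. The highest of these were Rpl14-ps1 at 8.75 CPM (Rpl14 had 47.4 CPM), Rpl10a-ps1 at 7.83 CPM and Rpl13a-ps1 at 6.10 CPM (Rpl13a had 179 CPM). Rps12-ps9, at 2.96 CPM, and Rps12, at 2.03 CPM, were of like level. Rpl10-ps3 averaged 8.99 CPM in wild-type P4, 4.28 CPM in Kir2.1 P4, 4.46 CPM in wild-type P8 and 3.85 CPM in Kir2.1 P8, while Rpl10 averaged 5.802 CPM ± 1.33 (SD, n = 2), 8.03 CPM ± 1.61 (SD, n = 3), 4.64 CPM ± 0.749 (SD, n = 3) and 4.54 CPM ± 0.636 (SD, n = 3). Their coding sequences are the same, and records that aligned to more than 1 place were kept apart from genes. Reads of the shared sequence may thus be missing from both genes, and how the counted reads were assigned was not tested. Kir2.1 P8 replicate 2, the library with the most genes detected, had the highest sum of these -ps genes (104 CPM).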
